A study of Mus musculus with 10 samples.

Results

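Hypoxia-inducible genes outside glycolysis were followed in mouse embryonic stem cells (ESCs) that had lost Wapal or Smc3. The list held 37 genes, the core of the oxygen sensing machinery and targets known to be raised by low oxygen, with the glycolytic enzymes kept apart. Each gene was read from 1 Affymetrix probe set, the brightest (highest mean log2 value over all arrays) among those annotated to that gene symbol alone. By this rule 36 of the 37 genes had a value, out of 18193 genes with such a probe set and 45037 probe sets tested in all. The gene without a value was Bnip3l, whose probe sets carry a second symbol. Ca9 and Ca12 were found under their present symbols Car9 and Car12.

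CJ9, an ESC line of the mouse strain 129SVJ that was adapted to gelatin, served for all samples. They had been exposed for 48 h to a lentivirus with polybrene at 10 µg/mL and then received medium with puromycin at 4 µg/mL and were cultured for 48 h after infection. The groups were Wapal shRNA2, Wapal shRNA1, Smc3 shRNA1 and Smc3 shRNA2, each a short hairpin RNA against the named gene, and Empty Vector, the parental virus without a hairpin. Each of the 5 groups had 2 arrays, all groups carried the virus and the puromycin selection, and no group had been placed in low oxygen as far as the labels say. All samples came from a single ESC line, and the Empty Vector has no hairpin of its own, so it carries no control for hairpin expression. Wapal releases cohesin from chromatin, and Smc3 is a core subunit of the cohesin ring.

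When oxygen is plentiful, prolyl hydroxylases of the Egln family mark the alpha subunits Hif1a and Epas1, and Vhl directs the marked subunits to destruction. When oxygen falls, the alpha subunit escapes this mark, pairs with Arnt and binds short DNA elements with the core ACGTG or GCGTG near its target genes. The targets outside glycolysis include secreted vascular and peptide factors, mitochondrial proteins of mitophagy, restraints on growth and mTOR signalling, enzymes that modify collagen and enzymes that handle acid and haem. Several of these genes also answer to other stresses and transcription factors. Most of this regulation acts on the stability of the HIF alpha proteins, so the transcript level of Hif1a is not a measure of HIF activity.

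The stretches before the start of transcription are shown for 6 genes, to mark any occurrence of the core letters named above. Adm, Bnip3, Ankrd37 and P4ha1 are shown as members that rose, and Cited2 as the member that fell. Vhl is shown as a part of the oxygen sensing machinery whose level did not pass any test. Each run is the 250 bases before the RefSeq start of transcription (build GRCm38.p6), written on the strand of the gene, and capitals mark ACGTG or GCGTG or their reverse complements CACGT and CACGC. Overlapping matches, as in the palindrome of CACGT with ACGTG, counted once.
Adm: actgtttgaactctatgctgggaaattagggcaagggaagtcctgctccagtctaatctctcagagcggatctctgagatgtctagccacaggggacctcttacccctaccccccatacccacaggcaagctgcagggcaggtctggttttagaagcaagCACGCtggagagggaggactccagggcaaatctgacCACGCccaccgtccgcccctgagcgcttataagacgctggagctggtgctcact
Bnip3: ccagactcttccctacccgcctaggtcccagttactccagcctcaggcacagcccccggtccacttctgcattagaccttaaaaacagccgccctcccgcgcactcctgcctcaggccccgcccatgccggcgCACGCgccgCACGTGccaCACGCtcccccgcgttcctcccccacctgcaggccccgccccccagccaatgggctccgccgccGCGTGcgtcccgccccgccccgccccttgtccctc
Ankrd37: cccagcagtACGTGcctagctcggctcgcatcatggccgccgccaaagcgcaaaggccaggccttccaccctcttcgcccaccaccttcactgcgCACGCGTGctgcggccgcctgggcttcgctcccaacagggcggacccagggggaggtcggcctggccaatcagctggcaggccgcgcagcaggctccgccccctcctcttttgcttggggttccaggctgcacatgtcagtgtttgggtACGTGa
P4ha1: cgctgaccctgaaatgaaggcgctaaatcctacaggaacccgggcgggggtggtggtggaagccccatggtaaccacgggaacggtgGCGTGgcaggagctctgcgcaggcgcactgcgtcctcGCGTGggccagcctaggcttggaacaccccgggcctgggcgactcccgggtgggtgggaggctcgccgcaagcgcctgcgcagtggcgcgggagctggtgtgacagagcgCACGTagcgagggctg
Cited2: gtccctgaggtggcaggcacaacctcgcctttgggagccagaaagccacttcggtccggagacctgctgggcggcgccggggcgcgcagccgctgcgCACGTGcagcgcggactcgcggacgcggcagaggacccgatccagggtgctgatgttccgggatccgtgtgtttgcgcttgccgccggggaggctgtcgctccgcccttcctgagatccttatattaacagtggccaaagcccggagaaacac
Vhl: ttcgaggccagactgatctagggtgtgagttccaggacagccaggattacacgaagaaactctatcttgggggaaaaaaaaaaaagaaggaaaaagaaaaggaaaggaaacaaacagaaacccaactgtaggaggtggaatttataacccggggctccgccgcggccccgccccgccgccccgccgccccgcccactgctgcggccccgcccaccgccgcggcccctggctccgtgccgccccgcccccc
The window of Adm (chr7:110627407-110627656, plus strand) held 2 matches, at 90 and 54 bases before the start. That of Bnip3 (chr7:138909507-138909756, minus strand) held 4, and those of Ankrd37 (chr8:45999851-46000100, minus strand) and P4ha1 (chr10:59323046-59323295, plus strand) held 3 each. Cited2 (chr10:17722978-17723227, plus strand) had a single palindromic match 153 bases before its start, and Vhl (chr6:113623744-113623993, plus strand) had 0. The RefSeq promoter table held 27 of the 36 measured genes, and 24 of these (88.9%) had at least 1 match in a window, against 41.5% of all 27025 genes in the table. A match is a description of these letters and not evidence that a factor binds there.

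On the arrays the median intensity lay between 38.6 and 39.7, and between 59.6% and 60.1% of probe sets had a log2 value under 6, close to background. The targeted transcripts fitted the labels: Wapl (the present symbol of Wapal) had log2 values of 7.88 and 7.76 with Wapal shRNA2 and 9.86 and 9.97 with Wapal shRNA1, against 11.29 and 11.37 with Empty Vector. Smc3 lay between 7.46 and 7.80 on the 4 Smc3 shRNA arrays, against 10.59 and 10.60 with Empty Vector. A supplementary table of the study exchanges the names of 2 arrays, replicate 2 of Wapal shRNA1 with replicate 1 of Wapal shRNA2. The GEO labels were kept, since Wapl was 9.97 and 7.88 on these arrays, and Wapal depletion uses the same 4 arrays under either naming. None of 10 ESC markers had a log2 value under 6 on every array, with means between 8.86 and 14.38. Of 12 fibroblast markers, 8 were under 6 on every array. The summed intensity of the 12 ranged from 3060 to 3650 with the Wapal shRNAs and 4750 to 6430 with the Smc3 shRNAs, against 3970 and 4640 with Empty Vector. Fn1 and Vim were the brightest of the 12 on every array (12.14 and 10.66 in log2 on Smc3 shRNA2 replicate 1). The sum therefore mostly reads these genes, and whether the share of fibroblasts differed was not tested. Of 8 endothelial markers, 3 were under 6 on every array, with a summed intensity of 383 to 541. Among the listed genes, 7 had a mean log2 value under 6.

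The 2 Empty Vector arrays stood apart from each other in these genes, which touches every comparison with Empty Vector. Over all probe sets the replicates of an shRNA differed with an SD of 0.19 to 0.203 in log2, and those of Empty Vector with an SD of 0.25. Over the listed genes, Empty Vector replicate 2 minus replicate 1 had a median of 0.26 in log2 and was positive for 30 of 36, against a median of 0.01 over all probe sets. The gap exceeded 0.5 for 14 genes and was under -0.5 for 0, while 1.89% of all probe sets exceeded 0.5 and 3.53% were under -0.5. It was 1.50 for Egln3, equal to the highest positive gap of any probe set, 1.36 for Bhlhe40 and 1.21 for both Bnip3 and Ndrg1. In the other direction the gap reached -2.23 over all probe sets. Just inside the limit of 0.5 lay Vegfa at 0.56, and just outside it Hmox1 at 0.35. With 2 arrays this difference has no replicate check, so it is given without a test, and each shRNA was also compared with each Empty Vector array alone. The replicates of Smc3 shRNA2 stood apart in some of these genes as well, with replicate 2 the higher for Adm, Egln3, Bnip3 and Ndrg1. The SD of its 2 arrays there was 0.59, 0.55, 0.49 and 0.47, against 0.18, 1.06, 0.85 and 0.86 with Empty Vector. For Bhlhe40 it was 0.19, with replicate 2 the lower, against 0.96 with Empty Vector. In bulk RNA a difference in the share of cells and a difference in RNA per cell cannot be told apart.

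**Figure D1:**
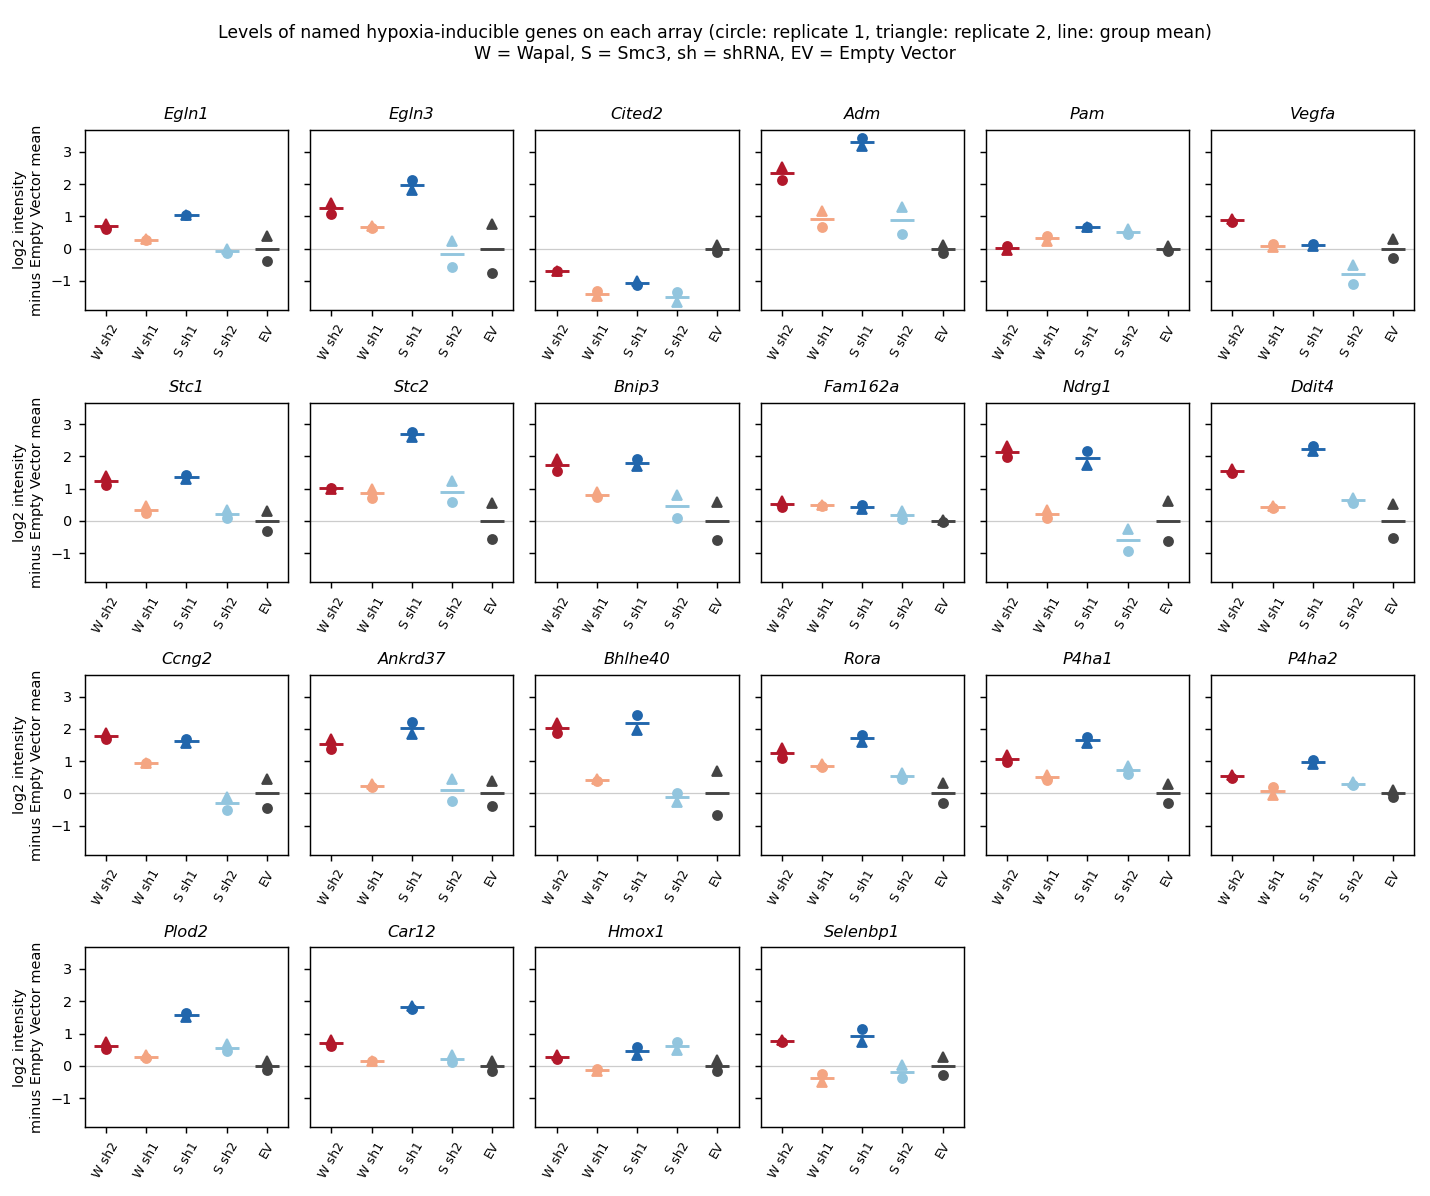
Level of each of 22 genes on every array, as the log2 intensity minus the mean of the Empty Vector arrays (vertical axis, the same in each panel), with circles for replicate 1, triangles for replicate 2 and lines for group means. Wapal shRNA2 and Smc3 shRNA1 gave the higher levels in most panels, the Empty Vector arrays lay up to 1.50 apart (Egln3), and Cited2 was below both Empty Vector arrays with every shRNA.

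Wapal depletion, the mean of both Wapal shRNAs minus Empty Vector, raised 9 of the 36 genes and lowered 1 by limma with Benjamini-Hochberg adjustment over all probe sets (threshold 0.05, 4 arrays against 2). Of all probe sets, 2.08% rose and 3.83% fell in this comparison. The genes that rose were Adm, Stc1, Bnip3, Fam162a, Ndrg1, Ccng2, Ankrd37, Rora and P4ha1, the one that fell was Cited2, and 26 did not pass. The median difference of the 36 genes was 0.25 in log2, against 0.02 over all probe sets. Smc3 depletion raised 12 genes (Adm, Pam, Stc1, Stc2, Ddit4, Ankrd37, Rora, P4ha1, P4ha2, Plod2, Car12 and Hmox1) and lowered Cited2, with 23 not passing. Here 4.22% of all probe sets rose and 3.41% fell, and the median of the 36 genes was 0.43, against 0 over all probe sets. Both comparisons share the Empty Vector arrays. The Smc3 arrays were deposited under a separate block of sample numbers, without an Empty Vector array of their own. Whether they were run apart is not given in the labels, and such a difference could not be told apart from Smc3 depletion. Without Empty Vector replicate 1 the number that rose was 2 in Wapal depletion and 7 in Smc3 depletion, and without Empty Vector replicate 2 it was 16 and 18. Without Wapal shRNA1 replicate 1, Wapal shRNA1 replicate 2 or Wapal shRNA2 replicate 2 it was 1 in Wapal depletion, and 3 without Wapal shRNA2 replicate 1, in fits with fewer residual degrees of freedom. Without 1 Smc3 array it was 8 to 10 in Smc3 depletion, with 8 without Smc3 shRNA2 replicate 2. For these fits that left 1 array out, the share of all probe sets called was not counted.

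**Figure D2:**
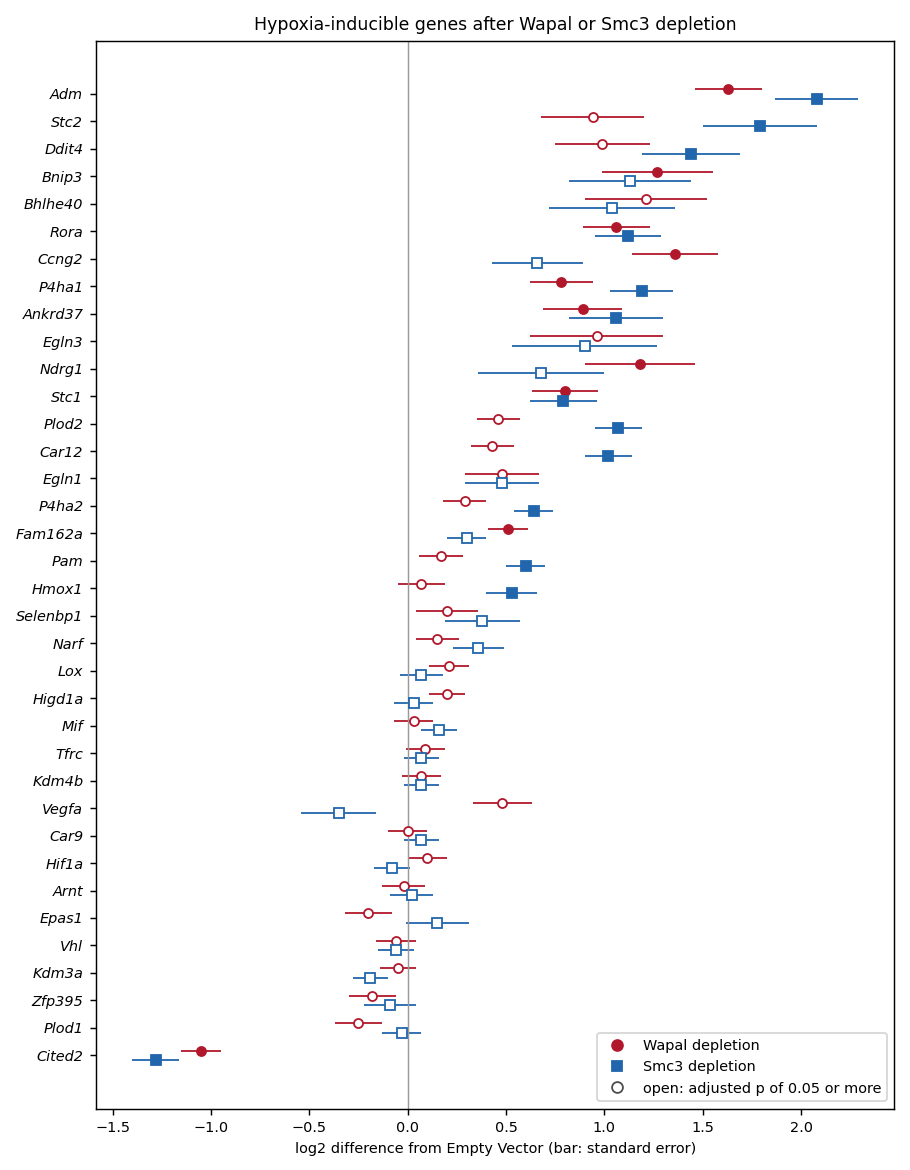
Difference from Empty Vector in log2 (horizontal axis, bars show the standard error) for all 36 genes in Wapal depletion (red circles) and Smc3 depletion (blue squares), with filled symbols for an adjusted p under 0.05. Adm had the largest rise in both (1.63 and 2.08), and Cited2 was the gene that fell in both (-1.05 and -1.28).

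The transcripts of the oxygen sensing machinery passed for 1 of 7 genes in either depletion. Cited2, which competes with the HIF alpha subunits for the coactivators CBP and p300 and is itself induced by HIF, had log2 values of 8.15 and 8.14 with Wapal shRNA2, 7.51 and 7.38 with Wapal shRNA1, 7.72 and 7.84 with Smc3 shRNA1, 7.49 and 7.19 with Smc3 shRNA2, against 8.72 and 8.96 with Empty Vector. Every shRNA array was below both Empty Vector arrays, and the Wapal shRNA2 arrays were the highest among them. Cited2 fell by 1.05 ± 0.10 in Wapal depletion (SE, limma adjusted p = 0.0042) and by 1.28 ± 0.12 in Smc3 depletion (adjusted p = 0.000925). It passed each time 1 array was left out, with differences of -1.16 to -0.93 and -1.40 to -1.16, and it was lower with each of the 4 shRNAs against each Empty Vector array (adjusted p of 0.00142 to 0.0469). Its second, dimmer probe set also lay below both Empty Vector arrays on all 8 shRNA arrays.

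Egln1 and Egln3 are HIF prolyl hydroxylases whose own genes are HIF targets, and neither passed in Wapal or Smc3 depletion. Egln3 had log2 values of 8.84 and 9.17 with Wapal shRNA2, 8.41 and 8.46 with Wapal shRNA1, 9.88 and 9.57 with Smc3 shRNA1, 7.20 and 7.98 with Smc3 shRNA2, against 7.01 and 8.51 with Empty Vector. Its Empty Vector arrays enclosed the Wapal shRNA1 arrays, and Empty Vector replicate 1 was the lowest of all 10 arrays. The difference was 0.96 ± 0.34 in Wapal depletion (adjusted p = 0.135) and 0.90 ± 0.37 in Smc3 depletion (adjusted p = 0.208), and without Empty Vector replicate 2 it was called in both, at 1.71 and 1.65. Egln1 had log2 values of 7.80 and 7.95 with Wapal shRNA2, 7.45 and 7.48 with Wapal shRNA1, 8.22 and 8.22 with Smc3 shRNA1, 7.06 and 7.17 with Smc3 shRNA2, against 6.79 and 7.58 with Empty Vector. Only Smc3 shRNA1 and Wapal shRNA2 were above both Empty Vector arrays, and Egln1 was called in both depletions without Empty Vector replicate 2, at 0.87 in each. Both genes rose with Smc3 shRNA1 against Empty Vector, by 1.97 ± 0.43 for Egln3 (adjusted p = 0.0274) and 1.03 ± 0.22 for Egln1 (adjusted p = 0.0231). Hif1a, Epas1, Arnt and Vhl had differences between -0.20 and 0.15 in the 2 depletions, with adjusted p of 0.338 to 0.95. Hif1a ranged over 0.43 in log2 across the 10 arrays and Vhl over 0.24.

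Among the secreted factors and the enzyme that matures them, 2 of 6 rose in Wapal depletion and 4 of 6 in Smc3 depletion. Adm, which encodes the vasodilator peptide adrenomedullin, had log2 values of 7.65 and 8.05 with Wapal shRNA2, 6.19 and 6.69 with Wapal shRNA1, 8.93 and 8.69 with Smc3 shRNA1, 5.97 and 6.80 with Smc3 shRNA2, against 5.39 and 5.64 with Empty Vector. All 8 shRNA arrays were above both Empty Vector arrays, and Smc3 shRNA1 was the highest group. Adm rose by 1.63 ± 0.17 in Wapal depletion (adjusted p = 0.00489) and by 2.08 ± 0.21 in Smc3 depletion (adjusted p = 0.00126), and it passed each time 1 array was left out, at 1.50 to 1.75 and 1.87 to 2.29. The probe set behind these values is of a type that can also bind other transcripts, so the second probe set of Adm was read as well. There Adm had log2 values of 7.70 and 8.25 with Wapal shRNA2, 5.26 and 5.92 with Wapal shRNA1, 9.46 and 8.91 with Smc3 shRNA1, 5.69 and 6.86 with Smc3 shRNA2, against 3.78 and 4.84 with Empty Vector. Again every shRNA array was above both Empty Vector arrays, with differences of 2.47 ± 0.30 and 3.42 ± 0.36, and the gap between the Empty Vector arrays was 1.06, against 0.25 on the brighter probe set.

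Pam, the enzyme that amidates adrenomedullin and other peptides, had log2 values of 5.45 and 5.30 with Wapal shRNA2, 5.76 and 5.59 with Wapal shRNA1, 6.02 and 6.04 with Smc3 shRNA1, 5.80 and 5.97 with Smc3 shRNA2, against 5.28 and 5.44 with Empty Vector. Every Smc3 array exceeded every Wapal and Empty Vector array, Wapal shRNA1 was above both Empty Vector arrays, and Wapal shRNA2 overlapped them. The probe set of Pam was dim, with a mean log2 value of 5.66. Pam rose by 0.60 ± 0.10 in Smc3 depletion (adjusted p = 0.0092), a call lost without Empty Vector replicate 1 (0.52, adjusted p = 0.0547), and the difference in Wapal depletion was 0.17 ± 0.11 (adjusted p = 0.382). Stc1 and Stc2 encode stanniocalcins, secreted glycoproteins. Stc2 had log2 values of 7.55 and 7.53 with Wapal shRNA2, 7.23 and 7.53 with Wapal shRNA1, 9.29 and 9.13 with Smc3 shRNA1, 7.11 and 7.75 with Smc3 shRNA2, against 5.96 and 7.09 with Empty Vector. All 8 shRNA arrays were above both Empty Vector arrays, and Smc3 shRNA1 stood more than 1 log2 unit above all others. On its next brightest probe set Wapal shRNA1 replicate 1 (6.48) and Smc3 shRNA2 replicate 1 (6.53) were under Empty Vector replicate 2 (6.54). Stc2 rose by 1.79 ± 0.29 in Smc3 depletion (adjusted p = 0.00888) and passed each time 1 array was left out, and its difference in Wapal depletion was 0.94 ± 0.26 (adjusted p = 0.0772), called without Empty Vector replicate 2 (1.50). Stc1 was dim, with log2 values of 5.54 and 5.82 with Wapal shRNA2, 4.69 and 4.90 with Wapal shRNA1, 5.87 and 5.74 with Smc3 shRNA1, 4.52 and 4.79 with Smc3 shRNA2, against 4.14 and 4.74 with Empty Vector. It was above both Empty Vector arrays with Wapal shRNA2 and Smc3 shRNA1, and the other shRNA groups overlapped Empty Vector. The second probe set of Stc1, at a mean log2 value of 2.93, did not pass. Its differences were 0.15 ± 0.10 in Wapal depletion and 0.05 ± 0.09 in Smc3 depletion. Stc1 rose by 0.80 ± 0.17 in Wapal depletion (adjusted p = 0.0367) and by 0.79 ± 0.17 in Smc3 depletion (adjusted p = 0.0248). Each call held without Empty Vector replicate 2 (1.10 in both) and was lost without any other array (down to 0.50 in Wapal depletion and 0.49 in Smc3 depletion). The Wapal call was also lost with a second quantile normalization.

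Vegfa, the vascular endothelial growth factor, did not pass in either depletion and differed in sign between them. Its log2 values were 7.77 and 7.87 with Wapal shRNA2, 7.08 and 6.98 with Wapal shRNA1, 7.08 and 7.02 with Smc3 shRNA1, 5.85 and 6.45 with Smc3 shRNA2, against 6.66 and 7.23 with Empty Vector. Wapal shRNA2 was above both Empty Vector arrays, Smc3 shRNA2 was below both, and the other groups lay between the Empty Vector arrays. The difference was 0.48 ± 0.15 in Wapal depletion (adjusted p = 0.103, called without Empty Vector replicate 2 at 0.76) and -0.35 ± 0.19 in Smc3 depletion (adjusted p = 0.359). Vegfa rose with Wapal shRNA2 alone, by 0.88 ± 0.17 (adjusted p = 0.0356). Mif, a cytokine and the brightest of the 36 genes, ranged over only 0.39 in log2.

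Of the 3 mitochondrial genes, 2 rose in Wapal depletion and 0 passed in limma's test of Smc3 depletion (2 higher at an unadjusted p under 0.05). Bnip3, a receptor on the outer mitochondrial membrane for mitophagy, had log2 values of 11.33 and 11.70 with Wapal shRNA2, 10.51 and 10.67 with Wapal shRNA1, 11.70 and 11.47 with Smc3 shRNA1, 9.88 and 10.58 with Smc3 shRNA2, against 9.18 and 10.38 with Empty Vector. Wapal shRNA2 and Smc3 shRNA1 were clearly above both Empty Vector arrays and Wapal shRNA1 slightly so, while Smc3 shRNA2 overlapped them. Bnip3 rose by 1.27 ± 0.28 in Wapal depletion (adjusted p = 0.041), a call that held without Empty Vector replicate 2 (1.88) and was lost without any other array (down to 0.67) and with an offset of 16 before log2. Its difference in Smc3 depletion was 1.13 ± 0.31 (adjusted p = 0.0663), called without Empty Vector replicate 2 at 1.73. Fam162a, a mitochondrial protein induced by hypoxia, had log2 values of 12.13 and 12.32 with Wapal shRNA2, 12.16 and 12.18 with Wapal shRNA1, 12.17 and 12.06 with Smc3 shRNA1, 11.74 and 11.99 with Smc3 shRNA2, against 11.66 and 11.72 with Empty Vector. Each shRNA array was above both Empty Vector arrays, by small amounts, and the Empty Vector arrays were only 0.05 apart. Fam162a rose by 0.51 ± 0.10 in Wapal depletion (adjusted p = 0.0261). The call was lost each time 1 array was left out (adjusted p of 0.0535 to 0.105), although the difference stayed between 0.46 and 0.56. The difference in Smc3 depletion was 0.30 ± 0.10 (adjusted p = 0.13). The second probe set of Fam162a, at a mean log2 value of 7.43, made the opposite calls, with 0.21 ± 0.12 in Wapal depletion (adjusted p = 0.324) and a rise of 0.50 ± 0.10 in Smc3 depletion (adjusted p = 0.0216). With the mean of all probe sets of a gene, Bnip3 and Fam162a were called in Smc3 depletion as well. Higd1a, which acts in the assembly of respiratory complexes, had differences of 0.20 ± 0.09 in Wapal depletion and 0.03 ± 0.10 in Smc3 depletion.

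The genes of growth restraint, signalling and transcription rose for 4 of 8 in Wapal depletion and 3 of 8 in Smc3 depletion. Ndrg1, a stress-induced gene of growth arrest and differentiation, had log2 values of 9.21 and 9.55 with Wapal shRNA2, 7.34 and 7.59 with Wapal shRNA1, 9.41 and 8.97 with Smc3 shRNA1, 6.32 and 6.99 with Smc3 shRNA2, against 6.63 and 7.85 with Empty Vector. Wapal shRNA2 and Smc3 shRNA1 were above both Empty Vector arrays, Wapal shRNA1 lay between the Empty Vector arrays, and Smc3 shRNA2 reached below both. Ndrg1 rose by 1.18 ± 0.28 in Wapal depletion (adjusted p = 0.0492), a call that held without Empty Vector replicate 2 (1.79) and was lost without any other array (down to 0.58), with an offset of 16 before log2 and with a second quantile normalization. Its probe set, like that of Adm, can also bind other transcripts, and the 4 others of Ndrg1 had differences of 0.53 to 1.21 in Wapal depletion. The 1 that passed (0.53 ± 0.11, adjusted p = 0.0367) is of a type that can bind related transcripts. Those specific to Ndrg1 by type did not pass, at 0.81 ± 0.22 (adjusted p = 0.067) and 0.65 ± 0.26 (adjusted p = 0.178). Its difference in Smc3 depletion was 0.68 ± 0.32 (adjusted p = 0.265), called without Empty Vector replicate 2 at 1.29. Ddit4, an inhibitor of mTOR signalling also known as REDD1, had log2 values of 11.44 and 11.59 with Wapal shRNA2, 10.37 and 10.42 with Wapal shRNA1, 12.29 and 12.12 with Smc3 shRNA1, 10.53 and 10.69 with Smc3 shRNA2, against 9.43 and 10.50 with Empty Vector. All Smc3 arrays exceeded both Empty Vector arrays, and the Wapal shRNA1 arrays did not exceed Empty Vector replicate 2. Ddit4 rose by 1.44 ± 0.25 in Smc3 depletion (adjusted p = 0.0111), a call lost without Smc3 shRNA2 replicate 2 (adjusted p = 0.0568), with differences of 0.91 to 1.98 over the fits that left 1 array out. In Wapal depletion the difference was 0.99 ± 0.24 (adjusted p = 0.0537), called without Empty Vector replicate 2 at 1.53.

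Ccng2, an atypical cyclin that restrains the cell cycle, had log2 values of 10.07 and 10.26 with Wapal shRNA2, 9.34 and 9.34 with Wapal shRNA1, 10.09 and 9.95 with Smc3 shRNA1, 7.87 and 8.29 with Smc3 shRNA2, against 7.93 and 8.85 with Empty Vector. All Wapal arrays and Smc3 shRNA1 were above both Empty Vector arrays, and Smc3 shRNA2 was not. Ccng2 rose by 1.36 ± 0.22 in Wapal depletion (adjusted p = 0.015), a call lost without Wapal shRNA1 replicate 1, Wapal shRNA1 replicate 2 or Wapal shRNA2 replicate 2 (adjusted p of up to 0.063). Its difference in Smc3 depletion was 0.66 ± 0.23 (adjusted p = 0.141), called without Empty Vector replicate 2 at 1.11. Ankrd37, an ankyrin repeat protein, had log2 values of 9.31 and 9.63 with Wapal shRNA2, 8.13 and 8.21 with Wapal shRNA1, 10.14 and 9.78 with Smc3 shRNA1, 7.70 and 8.37 with Smc3 shRNA2, against 7.55 and 8.31 with Empty Vector. Wapal shRNA2 and Smc3 shRNA1 were above both Empty Vector arrays, and the other shRNAs overlapped them. Ankrd37 rose by 0.89 ± 0.20 in Wapal depletion (adjusted p = 0.0397) and by 1.06 ± 0.24 in Smc3 depletion (adjusted p = 0.0349). The Wapal call held only without Empty Vector replicate 2 among the fits that left 1 array out (0.51 to 1.27). The Smc3 call was lost without Empty Vector replicate 1, either Smc3 shRNA1 array or Smc3 shRNA2 replicate 2, with differences of 0.68 to 1.44 over all fits that left 1 array out. Both calls of Ankrd37 were also lost with an offset of 16 before log2.

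Rora, a nuclear receptor of the circadian and metabolic programmes, had log2 values of 6.63 and 6.95 with Wapal shRNA2, 6.35 and 6.45 with Wapal shRNA1, 7.36 and 7.13 with Smc3 shRNA1, 5.98 and 6.16 with Smc3 shRNA2, against 5.23 and 5.85 with Empty Vector. The lowest shRNA array was above both Empty Vector arrays. Rora rose by 1.06 ± 0.17 in Wapal depletion (adjusted p = 0.0163), a call lost without Empty Vector replicate 1, Wapal shRNA2 replicate 2 or either Wapal shRNA1 array. Over all fits that left 1 array out its difference was 0.75 to 1.37. It rose by 1.12 ± 0.17 in Smc3 depletion (adjusted p = 0.00653) and passed there each time 1 array was left out. Of its other probe sets, 1 had a difference of the opposite sign (-0.20 in Wapal depletion and -0.21 in Smc3 depletion), at a mean log2 value of 5.76. Most of the others did not have every shRNA array above both Empty Vector arrays. Bhlhe40, a repressor of transcription, had log2 values of 7.60 and 7.91 with Wapal shRNA2, 6.10 and 6.16 with Wapal shRNA1, 8.16 and 7.68 with Smc3 shRNA1, 5.75 and 5.47 with Smc3 shRNA2, against 5.05 and 6.41 with Empty Vector. Wapal shRNA2 and Smc3 shRNA1 were above both Empty Vector arrays, which differed by 1.36. Its differences of 1.21 ± 0.31 in Wapal depletion (adjusted p = 0.0573) and 1.04 ± 0.32 in Smc3 depletion (adjusted p = 0.0972) did not pass, and both were called without Empty Vector replicate 2, at 1.89 and 1.71. Narf, which binds prelamin A, and the zinc finger gene Zfp395 had differences between -0.18 and 0.36 in the 2 depletions, none of which passed.

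Genes of collagen modification rose for 1 of 5 in Wapal depletion and 3 of 5 in Smc3 depletion. P4ha1 and P4ha2 encode catalytic subunits of the prolyl hydroxylase that acts on collagen, and Plod2 encodes a lysyl hydroxylase. P4ha1 had log2 values of 9.01 and 9.21 with Wapal shRNA2, 8.45 and 8.60 with Wapal shRNA1, 9.78 and 9.59 with Smc3 shRNA1, 8.64 and 8.87 with Smc3 shRNA2, against 7.74 and 8.32 with Empty Vector. All 8 shRNA arrays were above both Empty Vector arrays. P4ha1 rose by 0.78 ± 0.16 in Wapal depletion (adjusted p = 0.0312), a call that held only without Empty Vector replicate 2 among the fits that left 1 array out (0.50 to 1.07). It rose by 1.19 ± 0.16 in Smc3 depletion (adjusted p = 0.00432) and passed there in every such fit. Plod2 had log2 values of 10.45 and 10.65 with Wapal shRNA2, 10.16 and 10.26 with Wapal shRNA1, 11.57 and 11.44 with Smc3 shRNA1, 10.37 and 10.59 with Smc3 shRNA2, against 9.79 and 10.06 with Empty Vector. Both Empty Vector arrays were below all 8 shRNA arrays, most clearly with Smc3 shRNA1. On its second probe set Wapal shRNA1 replicate 1 (7.95) lay between the Empty Vector arrays (7.88 and 8.18). Plod2 rose by 1.07 ± 0.12 in Smc3 depletion (adjusted p = 0.00173), again in every such fit, and its difference in Wapal depletion was 0.46 ± 0.11 (adjusted p = 0.0555), called without Empty Vector replicate 2 at 0.59. P4ha2 had log2 values of 8.88 and 8.98 with Wapal shRNA2, 8.59 and 8.35 with Wapal shRNA1, 9.43 and 9.33 with Smc3 shRNA1, 8.65 and 8.77 with Smc3 shRNA2, against 8.29 and 8.52 with Empty Vector. The Smc3 arrays were all above both Empty Vector arrays, and Wapal shRNA1 overlapped them. P4ha2 rose by 0.64 ± 0.10 in Smc3 depletion (adjusted p = 0.00872), a call lost without Empty Vector replicate 1 (0.53, adjusted p = 0.0516), and the difference in Wapal depletion was 0.29 ± 0.11 (adjusted p = 0.173). Plod1, a second lysyl hydroxylase, had differences of -0.25 ± 0.12 and -0.03 ± 0.10, and the lysyl oxidase Lox stayed at a log2 value of 4.64 or less on every array.

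Of the carbonic anhydrases, which buffer acid at the cell surface, Car12 rose in Smc3 depletion and Car9 passed in neither. Car12 had log2 values of 5.84 and 6.01 with Wapal shRNA2, 5.36 and 5.37 with Wapal shRNA1, 6.98 and 7.08 with Smc3 shRNA1, 5.34 and 5.54 with Smc3 shRNA2, against 5.07 and 5.37 with Empty Vector. The Smc3 shRNA1 arrays were about 1 log2 unit above the next highest, and Smc3 shRNA2 and Wapal shRNA1 reached into the Empty Vector range. The probe set read for Car12 was dim, with a mean log2 value of 5.80. Its other probe sets, at means of 4.04 and 3.82, had differences of -0.17 ± 0.11 and 0.04 ± 0.10 in Smc3 depletion, and neither passed. Car12 rose by 1.02 ± 0.12 in Smc3 depletion (adjusted p = 0.00215), in every fit that left 1 array out, and its difference in Wapal depletion was 0.43 ± 0.11 (adjusted p = 0.0647), called without Empty Vector replicate 2 at 0.58. Car9, often used as a marker of hypoxic tissue, had a mean log2 value of 4.61, in the range of background, and varied by 0.23 over the 10 arrays.

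Of the iron, haem and selenium genes, 1 of 3 rose, in Smc3 depletion. Hmox1, which degrades haem and also answers to oxidative stress, had log2 values of 7.37 and 7.47 with Wapal shRNA2, 7.04 and 6.98 with Wapal shRNA1, 7.72 and 7.49 with Smc3 shRNA1, 7.87 and 7.63 with Smc3 shRNA2, against 6.97 and 7.32 with Empty Vector. Its highest arrays were those of Smc3 shRNA2 and Smc3 shRNA1, and Wapal shRNA1 overlapped Empty Vector. Hmox1 rose by 0.53 ± 0.13 in Smc3 depletion (adjusted p = 0.0471), a call that held only without Empty Vector replicate 2 among the fits that left 1 array out (0.36 to 0.71). It was also lost with an offset of 16 before log2 and with the replicate number as a block in the model. Its difference in Wapal depletion was 0.07 ± 0.12 (adjusted p = 0.766), with -0.11 without Empty Vector replicate 1. Selenbp1, a selenium-binding protein, had log2 values of 5.50 and 5.56 with Wapal shRNA2, 4.50 and 4.25 with Wapal shRNA1, 5.89 and 5.49 with Smc3 shRNA1, 4.37 and 4.77 with Smc3 shRNA2, against 4.47 and 5.04 with Empty Vector. All of these were under 6, and its probe set can also bind related transcripts. Selenbp1 had differences of 0.20 ± 0.16 (adjusted p = 0.484) and 0.38 ± 0.19 (adjusted p = 0.301). Tfrc, the transferrin receptor, and the histone demethylases Kdm3a and Kdm4b had differences between -0.19 and 0.09, and none passed.

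The shRNAs against 1 gene differed in how many of these genes they raised. Against both Empty Vector arrays, Wapal shRNA2 raised 14 of 36 genes and Wapal shRNA1 raised 2 (Adm and Rora), where 1.59% and 1.36% of all probe sets rose. Smc3 shRNA1 raised 18 and Smc3 shRNA2 raised 3 (Pam, Plod2 and Hmox1), where 5.17% and 3.82% of all probe sets rose. Each of the 4 shRNAs lowered 1 gene, Cited2, while 2.16% (Wapal shRNA2), 3.26% (Wapal shRNA1), 3.52% (Smc3 shRNA1) and 3.83% (Smc3 shRNA2) of all probe sets fell. The median difference of the 36 genes was 0.53 with Wapal shRNA2, 0.18 with Wapal shRNA1, 0.60 with Smc3 shRNA1 and 0.06 with Smc3 shRNA2. In the fits below that left out an shRNA array, the share of all probe sets called was not counted. Their counts can therefore not be read as particular to these genes. The number raised by Wapal shRNA2 was 0 without its replicate 2, 1 without its replicate 1, 5 without either Wapal shRNA1 array, 7 without Empty Vector replicate 1 and 19 without Empty Vector replicate 2. The number raised by Smc3 shRNA1 was 10 without its replicate 1 and 11 without its replicate 2. The number raised by Wapal shRNA1 was 0 without any array other than Empty Vector replicate 2, with which left out it was 8. For Smc3 shRNA2 it was likewise 8 without Empty Vector replicate 2, 1 without its own replicate 1, and 0 without Empty Vector replicate 1, either Smc3 shRNA1 array or Smc3 shRNA2 replicate 2. The call of Cited2 was lost for Wapal shRNA2 without any 1 of the 4 Wapal arrays and for Wapal shRNA1 without its replicate 2, and 4 genes were lower with Smc3 shRNA2 without Empty Vector replicate 1.

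Set against each Empty Vector array alone, the same 4 shRNAs gave different counts. Each of these fits is the one above that left out the other Empty Vector array, and not a separate check. Against Empty Vector replicate 1, Wapal shRNA2 raised 19 genes and Wapal shRNA1 raised 8, where 2.97% and 0.762% of all probe sets rose. Against Empty Vector replicate 2, Wapal shRNA2 raised 7 and Wapal shRNA1 raised 0 by limma (4 at an unadjusted p under 0.05), where 0.353% and 1.13% of all probe sets rose. Smc3 shRNA1 raised 20 genes against replicate 1 and 17 against replicate 2 (6.70% and 2.85% of all probe sets). Smc3 shRNA2 raised 8 against replicate 1 and 0 by limma against replicate 2 (5 at an unadjusted p under 0.05), where 3.71% and 3.13% of all probe sets rose. Against replicate 2, Smc3 shRNA2 lowered 4 genes, Cited2 (-1.62 ± 0.16, adjusted p = 0.00142), Vegfa (-1.08 ± 0.22, adjusted p = 0.0255), Ndrg1 (-1.19 ± 0.27, adjusted p = 0.037) and Ccng2 (-0.77 ± 0.18, adjusted p = 0.0432), where 3.23% of all probe sets fell. Every other fit against a single Empty Vector array lowered Cited2 alone. The share of all probe sets that fell against replicate 1 was 4.70% with Wapal shRNA2, 1.25% with Wapal shRNA1, 6.16% with Smc3 shRNA1 and 3.90% with Smc3 shRNA2. Against replicate 2 it was 0.346% with Wapal shRNA2, 2.39% with Wapal shRNA1 and 1.64% with Smc3 shRNA1. The 7 genes that Wapal shRNA2 raised against replicate 2 were Adm, Bnip3, Ndrg1, Ddit4, Ccng2, Ankrd37 and Bhlhe40, with differences of 1.01 to 2.21. Each of these fits holds a single Empty Vector array, which was assumed to vary like the shRNA arrays.

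**Figure D3:**
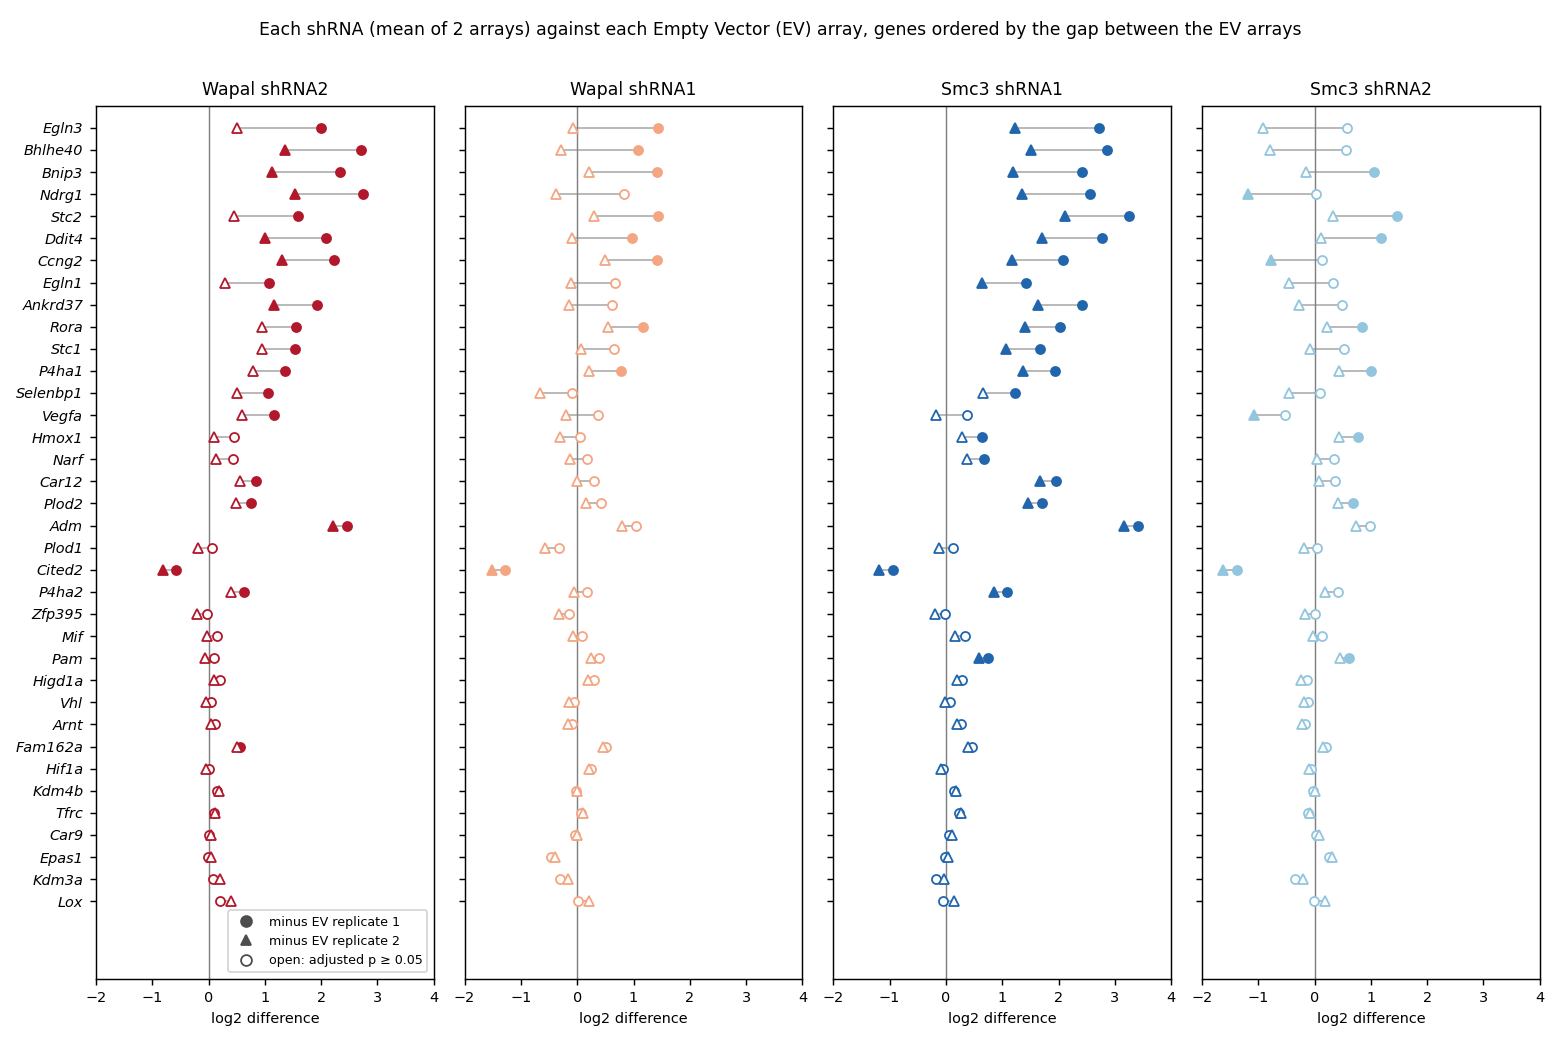
Difference in log2 (horizontal axis) of each shRNA, as the mean of its 2 arrays, from Empty Vector replicate 1 (circles) and from Empty Vector replicate 2 (triangles) for the 36 genes, ordered from the widest gap between the Empty Vector arrays (Egln3, top) downwards. Filled symbols passed at an adjusted p under 0.05, and Cited2 passed below 0 in all 4 panels against both arrays.

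Read without a test, the arrays of an shRNA lay above both Empty Vector arrays for 27 genes with Wapal shRNA2, 11 with Wapal shRNA1, 26 with Smc3 shRNA1 and 10 with Smc3 shRNA2. Over all probe sets this held for 28.2% with Wapal shRNA2, 26.1% with Wapal shRNA1, 24.1% with Smc3 shRNA1 and 25.5% with Smc3 shRNA2. The arrays lay below both Empty Vector arrays for 1 gene with Wapal shRNA2 (25.1% of all probe sets), 5 with Wapal shRNA1 (24.1%), 3 with Smc3 shRNA1 (26.5%) and 7 with Smc3 shRNA2 (24.1%). All 8 shRNA arrays were above both Empty Vector arrays for 6 genes, Adm, Stc2, Fam162a, Rora, P4ha1 and Plod2, where 4.67% of all probe sets met this rule. This holds for the brightest probe set of each. The other probe set of Adm, of Fam162a and of P4ha1 met it too. Those of Stc2 and Plod2 did not, and neither did most of those of Rora. The 8 shRNA arrays were all below both Empty Vector arrays for Cited2 alone, where 5.32% of all probe sets were so.

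The direct comparison of hairpins against the same gene does not use the Empty Vector means. By limma, Wapal shRNA2 exceeded Wapal shRNA1 for 5 genes and was lower for 0 (1 at an unadjusted p under 0.05), where 0.713% of all probe sets were higher and 0.393% lower. The 5 were Ndrg1 (1.91 ± 0.33, adjusted p = 0.0419), Adm (1.41 ± 0.20, adjusted p = 0.0264), Ankrd37 (1.30 ± 0.23, adjusted p = 0.0422), Selenbp1 (1.16 ± 0.18, adjusted p = 0.0345) and Cited2 (0.70 ± 0.12, adjusted p = 0.0419). The count fell to 0 without any 1 of the 4 Wapal arrays and was 13 without either Empty Vector array, which enter this fit only through the estimate of the spread. By limma, Smc3 shRNA1 exceeded Smc3 shRNA2 for 18 genes and was lower for 0 (0 at an unadjusted p under 0.05), where 5.85% of all probe sets were higher and 4.04% lower. The largest of these differences were 2.54 ± 0.37 for Ndrg1 (adjusted p = 0.00535), 2.43 ± 0.24 for Adm (adjusted p = 0.00152) and 2.31 ± 0.37 for Bhlhe40 (adjusted p = 0.00779). The count was 3 without Smc3 shRNA2 replicate 1, 4 without Smc3 shRNA1 replicate 1, 6 without Smc3 shRNA2 replicate 2 and 10 without Smc3 shRNA1 replicate 2. For the fits between hairpins that left 1 array out, the share of all probe sets called was not counted. Both Wapal shRNA2 arrays were above both Wapal shRNA1 arrays for 27 genes (25.5% of all probe sets). Both Smc3 shRNA1 arrays were above both Smc3 shRNA2 arrays for 29 (25.8%).

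The differences between hairpins and the gap between the Empty Vector arrays come from separate arrays and were correlated over the listed genes. Each was taken as the side that was higher in most listed genes minus the other, so the sign of each r rests on that choice. Across the 36 genes the gap had Pearson's r = 0.646 and Spearman's rho = 0.687 with Wapal shRNA2 minus Wapal shRNA1, and r = 0.817 and rho = 0.808 with Smc3 shRNA1 minus Smc3 shRNA2. Over all 45037 probe sets these r were 0.403 and 0.307. The 2 hairpin differences had r = 0.780 over the 36 genes and 0.325 over all probe sets. These are descriptions across genes, which are not independent replicates. The cause of the gap was not tested.

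**Figure D4:**
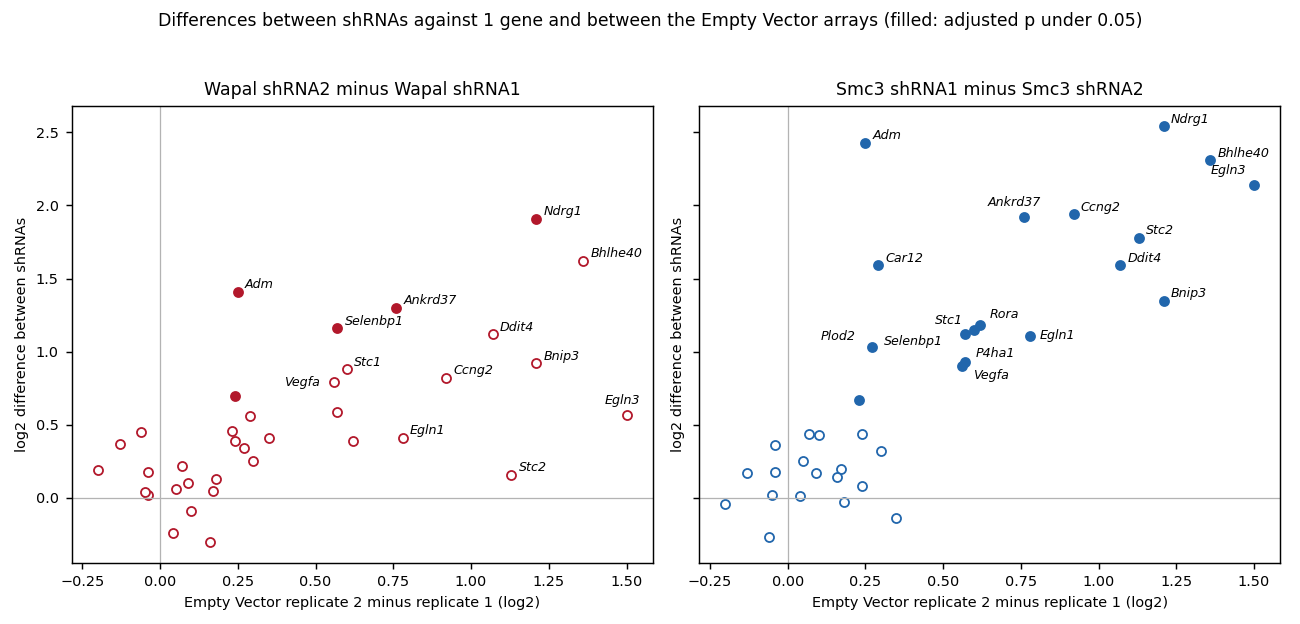
Each point is 1 of the 36 genes, with Empty Vector replicate 2 minus replicate 1 in log2 on the horizontal axis and Wapal shRNA2 minus Wapal shRNA1 (left) or Smc3 shRNA1 minus Smc3 shRNA2 (right) in log2 on the vertical axis. Filled points passed between the shRNAs, 5 on the left and 18 on the right, and Ndrg1 had the largest difference in both panels (1.91 and 2.54).

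Wapal depletion and Smc3 depletion were compared in a fit of all 10 arrays. A difference between the deposited blocks of arrays could not be told apart here from one between the depletions. In Wapal depletion 2 genes were higher and 7 were lower than in Smc3 depletion, where 6.71% of all probe sets were higher and 10.7% lower. Vegfa was higher by 0.83 ± 0.14 (adjusted p = 0.00296) and Ccng2 by 0.71 ± 0.17 (adjusted p = 0.017). The 7 lower genes were Stc2 (-0.86 ± 0.21, adjusted p = 0.0202), Plod2 (-0.61 ± 0.09, adjusted p = 0.00137), Car12 (-0.59 ± 0.09, adjusted p = 0.00143), Hmox1 (-0.47 ± 0.10, adjusted p = 0.00883), Pam (-0.43 ± 0.08, adjusted p = 0.00428), P4ha1 (-0.40 ± 0.12, adjusted p = 0.0461) and P4ha2 (-0.35 ± 0.09, adjusted p = 0.0175). All 3 collagen enzymes that rose in Smc3 depletion were among them, and so was Pam. Adm did not pass (-0.45 ± 0.18, adjusted p = 0.114), and Rora and Stc1 had differences of -0.06 ± 0.13 and 0.01 ± 0.13. The number of lower genes was 4 without Wapal shRNA2 replicate 1 or Smc3 shRNA1 replicate 1. The number of higher genes was 3 without either Empty Vector array and 1 without Wapal shRNA1 replicate 2, Wapal shRNA2 replicate 2, Smc3 shRNA1 replicate 2 or Smc3 shRNA2 replicate 1. The share of all probe sets called was not counted in these fits that left 1 array out. Of the 9 genes that differed, all but Hmox1 and Pam also differed between the Smc3 shRNAs, and none passed between the Wapal shRNAs.

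The counts in related lists are to be read against the shares of all probe sets given above, 2.08% higher and 3.83% lower in Wapal depletion and 4.22% higher and 3.41% lower in Smc3 depletion. Of 17 measured HIF-responsive glycolysis genes, 0 passed by limma in Wapal depletion (5 higher at an unadjusted p under 0.05) and 2 rose in Smc3 depletion, with medians of 0.27 and 0.29. Their summed intensity was 71600 and 76700 with Wapal shRNA2, 56900 and 57900 with Wapal shRNA1, 79200 and 73000 with Smc3 shRNA1, 55200 and 59900 with Smc3 shRNA2, against 49900 and 65400 with Empty Vector. The median gap between the Empty Vector arrays was 0.52 for this list, and 7 of its genes were higher with Smc3 shRNA1 than with Smc3 shRNA2. Of 15 other genes of oxygen sensing and HIF cofactors, 1 fell in Wapal depletion, the coactivator Crebbp, and 0 passed by limma in Smc3 depletion (2 higher and 3 lower at an unadjusted p under 0.05). Of 12 integrated stress response genes, 1 fell in Wapal depletion, and in Smc3 depletion 1 rose and 2 fell, with medians of -0.01 in Wapal depletion and -0.12 in Smc3 depletion. Of 8 Nrf2 oxidative stress genes, 1 rose in Wapal depletion, and 1 rose and 2 fell in Smc3 depletion, with a median of -0.05 in each. Of 7 iron handling genes, 0 passed by limma in Wapal depletion (2 higher at an unadjusted p under 0.05) and 1 rose in Smc3 depletion. The ESC markers had a summed intensity of 72800 to 73900 with Wapal shRNA2, 66500 to 67400 with Wapal shRNA1, 66700 to 66900 with Smc3 shRNA1 and 61300 to 62600 with Smc3 shRNA2, against 66600 and 70100 with Empty Vector. Of the 10 ESC markers, Fgf4, a growth factor of ESCs, rose in Wapal depletion (0.50 ± 0.12, adjusted p = 0.0481). In Smc3 depletion the pluripotency factor Nanog (-0.71 ± 0.09, adjusted p = 0.00297) fell, as did Zfp42 (-0.44 ± 0.10, adjusted p = 0.0282), and these 3 markers were named after their values were seen. The part of these markers in the levels of the hypoxia-inducible genes was not tested.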

How the data were processed

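Total RNA of 10 samples, 2 in each of 5 groups, had been hybridised to Affymetrix arrays of the mouse genome. The deposited table gives 1 linear intensity for each probe set and array, computed by the authors with RMA (background correction, quantile normalization and a summary per probe set); its version and the arrays normalized together are not given in the sources used here. RMA gives arrays nearly the same distribution and compresses differences among dim probe sets.

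After 64 control probe sets were left out, log2 values of 45037 probe sets were modelled in limma 3.58.1 (R 4.3.3) with 1 mean per group, no covariate and no filter. Tests were two-sided with Benjamini-Hochberg adjustment over all 45037 probe sets and a threshold of 0.05, and errors are standard errors. Each depletion was fitted on 6 arrays, the comparison of depletions on 10, and each shRNA against a single Empty Vector array on 5. The script was tested on simulated data. The members, lists and tests were chosen with earlier results of these data known, so no p was adjusted over a list alone. A member was named with its value on every array where it passed in Wapal or Smc3 depletion or where the Empty Vector arrays differed by over 0.5 in log2. Gene names came from the platform annotation, and promoters from RefSeq (GRCm38.p6). Replicates are named biological in the labels, without a statement that infections were separate, so p-values measure the spread between these samples, which may be technical. The number of arrays limits the precision. The alternatives were an offset of 16 before log2, leaving out probe sets with a mean log2 value under 6, a second quantile normalization, the mean of a gene's probe sets, all 10 arrays in 1 model, the replicate block, a two-sample test of each probe set alone and leaving out each array.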

Additional observations from a re-analysis of the deposited data

Results flagged for a closer look

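For 9 of the 36 genes Wapal depletion and Smc3 depletion differed by a test of the difference itself (limma, Benjamini-Hochberg over all probe sets). Such a difference could not be told apart from one between the deposited blocks of arrays. In this comparison 6.71% of all probe sets were higher and 10.7% lower in Wapal depletion, against 2 and 7 of the 36 genes. Wapal depletion minus Smc3 depletion was 0.83 in log2 for Vegfa and 0.71 for Ccng2. It was -0.86 for Stc2, -0.61 for Plod2, -0.59 for Car12, -0.47 for Hmox1, -0.43 for Pam, -0.40 for P4ha1 and -0.35 for P4ha2. For Vegfa the Smc3 shRNA2 arrays lay at 5.85 and 6.45 and the Smc3 shRNA1 arrays at 7.08 and 7.02. The groups of 2 arrays are too small to look for single outlying arrays.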

How the results depend on the processing

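Among counts of members recomputed under alternatives other than leaving out an array, 154 stayed within a factor of 1.5 of the reported count and 52 did not. The share of all probe sets called was not counted under these alternatives. Each gene named with its array values kept its direction in every alternative fit that held it, except Hmox1 and Selenbp1 in Wapal depletion. Cited2 and Adm also kept their calls in both depletions, except under the two-sample test below. There Adm was lost unadjusted and Cited2 after adjustment. With all 10 arrays in 1 model, 14 genes rose in Wapal depletion, 2 fell with Smc3 shRNA2 and 9 were higher with Wapal shRNA2 than with Wapal shRNA1. Over all probe sets the numbers of the replicates did not pair the samples (correlations of the deviations of same-numbered samples between -0.156 and 0.0569). Whether they did so in the listed genes alone was not tested. With the replicate block, 13 genes rose in Wapal depletion and 12 in Smc3 depletion, and 2 fell with Smc3 shRNA2, while the Smc3 call of Hmox1 was lost. An offset of 16 before log2 gave 1 gene higher with Wapal shRNA1 and 3 between the Wapal shRNAs. Against Empty Vector replicate 2 it gave 2 higher and 2 lower with Wapal shRNA1 and 11 higher with Wapal shRNA2, and against replicate 1 it gave 2 lower with Smc3 shRNA2. Without dim probe sets, which keeps 29 of the 36 genes and fewer tests, 4 rose with Wapal shRNA1. Against Empty Vector replicate 1 it left 13 higher with Wapal shRNA1 and 2 lower with Smc3 shRNA2. Against replicate 2 it left 12 higher with Wapal shRNA2, 4 higher and 2 lower with Wapal shRNA1, and 1 higher and 7 lower with Smc3 shRNA2. A second quantile normalization gave 1 higher with Wapal shRNA1, 3 between the Wapal shRNAs, 0 lower with Wapal shRNA2 against either Empty Vector array (1 each as reported), and 2 lower with Smc3 shRNA2 against replicate 2. The mean of all probe sets of a gene gave 1 higher with Wapal shRNA1 and 5 with Smc3 shRNA2, and against replicate 2 it gave 2 lower with Wapal shRNA1, 0 lower with Wapal shRNA2 and 1 higher with Smc3 shRNA2. A two-sample test of each probe set alone, without limma's shared estimate of the spread and unadjusted, called 4 genes higher in Wapal depletion, 2 in Smc3 depletion, 3 with Wapal shRNA2, 1 with Smc3 shRNA2 and 17 between the Wapal shRNAs, with 2 lower with Smc3 shRNA2, and 0 higher and 2 lower between the depletions. After Benjamini-Hochberg this test called 0 genes in either direction in every comparison it was run on. The causes of these shifts were not tested.

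Leaving out 1 array, 1 to 16 genes rose in Wapal depletion and 7 to 18 in Smc3 depletion, with 1 lower in each. With Wapal shRNA1 0 to 8 rose and 0 to 1 fell, with Wapal shRNA2 0 to 19 rose and 0 to 1 fell, with Smc3 shRNA1 10 to 20 rose, and with Smc3 shRNA2 0 to 8 rose and 1 to 4 fell. Between the Wapal shRNAs 0 to 13 genes were higher, between the Smc3 shRNAs 3 to 20, and between the depletions 1 to 3 were higher and 4 to 8 lower. Without Empty Vector replicate 1 the differences of Hmox1 and Selenbp1 in Wapal depletion turned to -0.11 and -0.08, and without Empty Vector replicate 2 they were 0.24 and 0.48. In the fits that left out an shRNA array, the share of all probe sets called was not counted. The limits are 2 arrays a group, a gap between the Empty Vector arrays in the very genes compared, and 7 genes near background.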
